A study of Mus musculus with 9 samples.

Results

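A set of 7 genes of the insulin-like growth factor (IGF) axis were followed across 9 RNA-seq libraries of mouse embryonic stem (ES) cells in which Yap1 had been raised or lowered. They were Igf2 and H19, the receptors Igf2r and Igf1r, and the Igf2 mRNA-binding protein genes Igf2bp1, Igf2bp2 and Igf2bp3. All 7 members were found by symbol among the 18504 genes of the deposited FPKM table (fragments scaled by transcript length and by library depth). The set was chosen by the FPKM of Igf2 and H19 in the overexpression library and of H19 in the differentiated knockdown library, seen earlier, so those values are a description and carry no test. All libraries came from J1 ES cells of strain 129S4/SvJae at passages 5-7. Yap1_OE overexpressed Yap1 and was set against BirA. The libraries labelled Yap1_KO1 and Yap1_KO2, given as knockouts, were set against ESC. Yap1_KD was a knockdown set against KD_control, the library titled Control. dESC_Yap1_KD was a knockdown in differentiated cells and was set against dESC_control, differentiated cells without it. The construct behind the overexpression, the knockout edit, the knockdown reagent, the clones and the differentiation protocol are not stated in any source at hand. Each group had 1 library except Yap1_KO, which had 2.

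Yap1 is the transcriptional coactivator at the end of the Hippo pathway and reaches DNA mainly through TEAD factors. Igf2 is a fetal growth factor transcribed from the paternal chromosome, and H19 is a noncoding RNA transcribed from the maternal one. Both are governed by 1 imprinting control region between them, where CTCF binds the unmethylated maternal copy and insulates Igf2 from enhancers that it shares with H19. Igf1r is the tyrosine kinase receptor that carries the growth signal of Igf2, and Igf2r carries Igf2 to the lysosome for degradation. The Igf2bp proteins bind Igf2, H19 and many other RNAs and are abundant in embryonic cells. Igf2bp1 and Igf2bp3 are largely silenced in adult tissue.

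Yap1 itself was at 139 FPKM in Yap1_OE and 46.7 FPKM in BirA, and the knockdowns held 12.2% (undifferentiated) and 16.0% (differentiated) of their controls. The library labelled Yap1_KO1 kept 87.6% of the Yap1 FPKM of ESC and the library labelled Yap1_KO2 kept 42.2%, so RNA level goes against the label for the first of them, and the edit is not given. Of the YAP target genes Cyr61, Ctgf, Amotl2 and Ajuba, 4 of 4 were at least 2-fold lower than in ESC in each of these libraries, beside 1.69% of genes for Yap1_KO1 and 1.7% for Yap1_KO2. ESC was the highest of BirA, ESC and KD_control for each of them. KD_control had 2.73, 7.78 and 32.9 FPKM of Ctgf, Amotl2 and Ajuba, beside 7.62, 18.1 and 70.0 FPKM in ESC. Both knockout-labelled libraries were below BirA, ESC and KD_control for each of these genes. Ankrd1, also listed, was at 0 in ESC and in both knockout-labelled libraries. Cyr61, a secreted matrix protein gene, was at 0.670 and 0.571 FPKM in the libraries labelled Yap1_KO1 and Yap1_KO2, beside 5.88 FPKM in ESC. Effective depth, read from the FPKM steps, was 9.19 to 22.3 M (mega) fragments. The 6 ES cell markers were above 1 FPKM in every library, and their summed level was 1971 to 2622 FPKM in the 7 undifferentiated libraries, 1586 FPKM in dESC_Yap1_KD and 1171 FPKM in dESC_control.

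**Figure D1:**
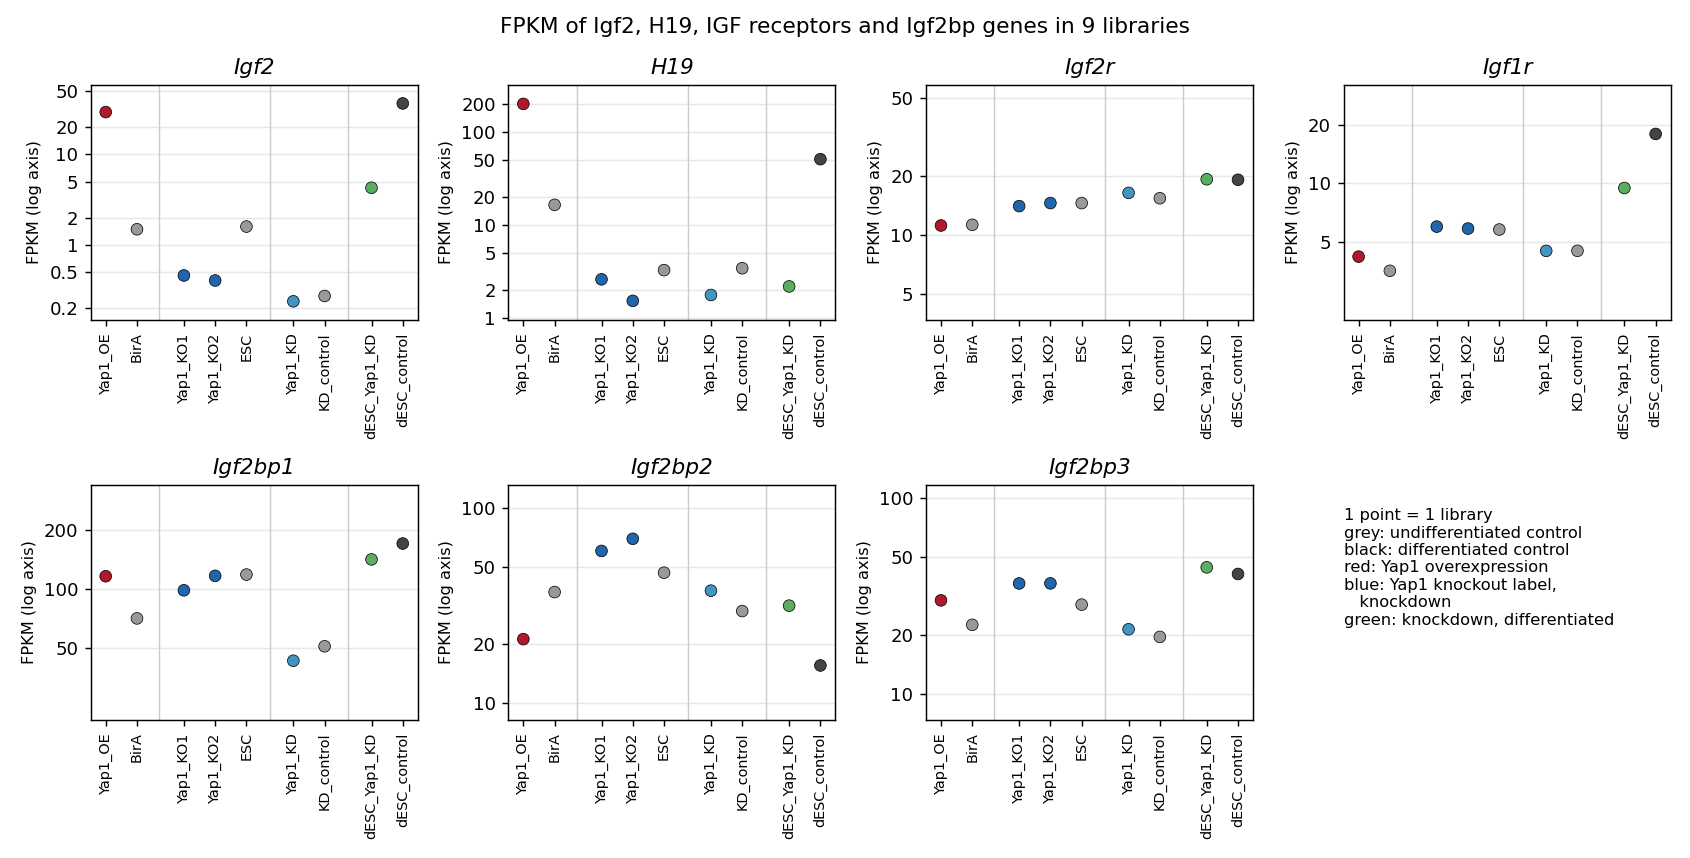
FPKM (log axis, a separate range for each gene) of the 7 genes in 9 libraries; each point is 1 library, and each perturbed library stands left of its control. Igf2 and H19 span more than 100-fold between libraries, while Igf2r stays between 11.2 and 19.3 FPKM.

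Igf2, the ligand, was scarce in undifferentiated control cells, abundant with Yap1 overexpression and after differentiation, and lower with Yap1 knockdown in differentiated cells, though still above every undifferentiated control. It stood at 29.2 FPKM in Yap1_OE and 1.49 FPKM in BirA, a 19.6-fold difference. The libraries labelled Yap1_KO1 and Yap1_KO2 had 0.460 and 0.405 FPKM, against 1.59 FPKM in ESC. Yap1_KD had 0.239 FPKM and KD_control 0.273 FPKM. The overexpression library was thus far above all undifferentiated libraries, the knockout-labelled pair lay below ESC but above KD_control, and Yap1_KD lay just below KD_control, the lowest control. The 3 controls themselves spread 5.83-fold for Igf2, more than the gap between the knockout-labelled libraries and ESC. In differentiated cells Igf2 stood at 4.27 FPKM in dESC_Yap1_KD and 36.3 FPKM in dESC_control, so the knockdown library held 11.7% of its control. Differentiation without knockdown went with 133-fold more Igf2 in dESC_control than in KD_control, and with knockdown dESC_Yap1_KD was 17.9-fold above Yap1_KD. In bulk RNA of this kind, fewer cells of a type and less RNA per cell cannot be told apart.

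Igf2 values near the bottom of this range rested on few fragments. By depth and annotated transcript length, about 20.3 fragments lay behind the Yap1_KD value, 28.8 behind KD_control, and 20.0 and 24.1 behind the libraries labelled Yap1_KO1 and Yap1_KO2. The overexpression and dESC_control values rested on about 3016 and 3301 fragments. A difference between Yap1_KD and KD_control was therefore not detectable at this depth. Igf2os, which lies on the opposite strand of Igf2, reached at most 0.569 FPKM in any library, and no source at hand says whether the libraries kept strand.

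Promoter sequence is shown for Igf2 because it was the ligand gene with the widest range. The RefSeq promoter table (build GRCm38.p6) matched 5 of the 7 members, namely Igf2, Igf2r, Igf1r, Igf2bp2 and Igf2bp3. The 250 bases before each annotated start were searched on both strands for GGAATG, the core letters of the TEAD motif, whose reverse complement is CATTCC. The motif was present in 3 of the 4 Igf2 windows and in 0 of the 4 windows of the other members, beside 12.6% of all 32851 promoter windows. Of all windows, 0.992% held 2 or more matches, as the third Igf2 window did. A match is a description of letters and not a shown binding site. The first Igf2 window, at chr7:142657497-142657746 on the minus strand, is given 5′ to 3′ with the motif in capitals, 163 bases before the start.
Igf2 window 1: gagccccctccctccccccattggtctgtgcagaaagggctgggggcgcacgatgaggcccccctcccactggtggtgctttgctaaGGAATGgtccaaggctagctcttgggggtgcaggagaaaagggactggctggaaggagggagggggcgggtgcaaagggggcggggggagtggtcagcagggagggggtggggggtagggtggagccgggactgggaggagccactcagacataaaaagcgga
The matches of the windows that overlap annotated exons are shown with 12 bases on either side, at chr7:142658967-142658996 for window 2 (180 bases before its start) and at chr7:142661472-142661501 and chr7:142661366-142661395 for window 3 (218 and 112 bases before its start), all on the minus strand.
Igf2 window 2: gggtgacgcctcCATTCCtcccccctcaac
Igf2 window 3, first match: aataattttcctCATTCCccaacttggatt
Igf2 window 3, second match: ctttgggccgctCATTCCcaggaccgcaaa

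H19, the imprinted noncoding partner of Igf2, was high in the overexpression library and in dESC_control, as Igf2 was, but it also differed in the BirA control. It stood at 198 FPKM in Yap1_OE and 16.3 FPKM in BirA, a 12.2-fold difference. The libraries labelled Yap1_KO1 and Yap1_KO2 had 2.58 and 1.51 FPKM, against 3.24 FPKM in ESC. Yap1_KD had 1.75 FPKM and KD_control 3.39 FPKM, so the knockdown library held 51.5% of its control. Both knockout-labelled libraries and Yap1_KD were below all 3 undifferentiated controls for H19, although the library labelled Yap1_KO1 kept 79.6% of ESC and the gap between the knockout-labelled pair was itself 0.51 on the log2 scale. In differentiated cells H19 stood at 2.16 FPKM in dESC_Yap1_KD and 50.5 FPKM in dESC_control, so the knockdown library held 4.28% of its control. That left dESC_Yap1_KD 1.24-fold above Yap1_KD, while dESC_control was 14.9-fold above KD_control.

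The control libraries disagreed on H19. BirA was 5.04-fold above ESC and 4.81-fold above KD_control, whereas ESC (3.24 FPKM) and KD_control (3.39 FPKM) lay close together. Against ESC or KD_control in place of BirA, the log2 ratio of Yap1_OE for H19 was 5.56 or 5.51, beside 3.53 against BirA. The size of the H19 difference with overexpression therefore depended on the control, and its direction did not for these 3 controls. About 9926 fragments lay behind H19 in Yap1_OE, 2221 in dESC_control, 64.8 in dESC_Yap1_KD and 43.5 in the library labelled Yap1_KO2.

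H19 is also the precursor of miR-675, whose mature arms are shown because H19 is their host transcript. The table has no row for them, so their levels were not analysed here. The sequences are from RefSeq (GRCm38.p6, minus strand), at chr7:142577112-142577133 for the 5p arm and chr7:142577078-142577099 for the 3p arm, with the seed, bases 2 to 8, in capitals. The arms have different seeds.
mmu-miR-675-5p: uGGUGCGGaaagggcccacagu
mmu-miR-675-3p: cUGUAUGCccuaaccgcucagu

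The ratio of H19 to Igf2 FPKM was used to ask whether the pair moved in proportion, and was chosen after the values were seen. It was 6.80 in Yap1_OE and 11.0 in BirA, 5.60 and 3.73 in the libraries labelled Yap1_KO1 and Yap1_KO2, beside 2.03 in ESC, and 7.33 in Yap1_KD and 12.4 in KD_control. In differentiated cells it was 0.506 in dESC_Yap1_KD and 1.39 in dESC_control. H19 exceeded Igf2 in 8 of the 9 libraries, and dESC_Yap1_KD was the exception. The ratio had no single direction with Yap1, being lower in Yap1_OE and in both knockdowns and higher in both knockout-labelled libraries than in each own control. In Yap1_KD, KD_control and the knockout-labelled pair it rested on about 20.0 to 28.8 fragments of Igf2. The 3 undifferentiated controls alone ran from 2.03 to 12.4, so the directions in undifferentiated cells are uncertain.

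The receptors did not follow their ligand in undifferentiated cells. Igf2r, the clearance receptor, stood at 11.2 FPKM in Yap1_OE and 11.3 FPKM in BirA. It was at 14.0 and 14.5 FPKM in the libraries labelled Yap1_KO1 and Yap1_KO2, beside 14.5 FPKM in ESC, at 16.4 FPKM in Yap1_KD and 15.4 FPKM in KD_control, and at 19.3 FPKM in dESC_Yap1_KD and 19.1 FPKM in dESC_control. Every perturbed library was within 0.09 of its own control on the log2 scale, and the whole range over the 9 libraries was 1.73-fold, the narrowest of the 7 members. Airn, the noncoding RNA on the opposite strand of Igf2r, reached at most 0.123 FPKM.

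Igf1r, the signalling receptor, was at 4.22 FPKM in Yap1_OE and 3.57 FPKM in BirA. The libraries labelled Yap1_KO1 and Yap1_KO2 had 6.01 and 5.87 FPKM and ESC 5.81 FPKM, and Yap1_KD had 4.51 FPKM and KD_control 4.52 FPKM. Those 4 undifferentiated ratios lay within 0.19 on the log2 scale, less than the 1.63-fold spread of the 3 undifferentiated controls. Differentiated cells stood apart, with 9.48 FPKM in dESC_Yap1_KD and 17.9 FPKM in dESC_control. The differentiated knockdown thus held 52.8% of its control, and dESC_control was 3.97-fold above KD_control. With Igf1r lower and Igf2r level, the ratio of Igf2r to Igf1r FPKM was 2.03 in dESC_Yap1_KD and 1.07 in dESC_control, while it lay between 2.33 and 3.63 in the 7 undifferentiated libraries.

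The Igf2bp genes were the most abundant members in undifferentiated control cells and differed from one another in direction. Igf2bp1 was at 116 FPKM in Yap1_OE and 70.5 FPKM in BirA, at 98.3 and 117 FPKM in the libraries labelled Yap1_KO1 and Yap1_KO2, beside 118 FPKM in ESC, and at 42.8 FPKM in Yap1_KD and 50.8 FPKM in KD_control. In differentiated cells it was at 142 FPKM in dESC_Yap1_KD and 171 FPKM in dESC_control. Igf2bp1 was lower than its control in the knockout-labelled and knockdown libraries and higher in Yap1_OE, but its 3 undifferentiated controls spread 2.33-fold, more than any of those differences, and Yap1_OE had a log2 ratio of -0.03 against ESC. With differentiation, Igf2bp1 was 3.36-fold higher in dESC_control than in KD_control, the lowest of the controls. The log2 ratio of dESC_control was 1.73 against KD_control and 0.52 against ESC.

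Igf2bp2 took the opposite direction. It was at 21.2 FPKM in Yap1_OE and 37.0 FPKM in BirA. The libraries labelled Yap1_KO1 and Yap1_KO2 had 60.1 and 69.4 FPKM, against 46.5 FPKM in ESC, and Yap1_KD had 37.6 FPKM and KD_control 29.6 FPKM. Differentiated cells had 31.5 FPKM in dESC_Yap1_KD and 15.6 FPKM in dESC_control, a 2.03-fold difference in FPKM. Igf2bp2 was therefore higher than its own control in the 4 knockout-labelled and knockdown libraries, lower in Yap1_OE, and lower in dESC_control than in any undifferentiated library. The knockout-labelled libraries share ESC as their control, so they are not separate comparisons. Yap1_KD had a log2 ratio of -0.30 against ESC, and lay inside the range of the 3 undifferentiated controls (29.6 to 46.5 FPKM), the knockout-labelled pair lay above it and Yap1_OE below it.

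Igf2bp3 was at 30.0 FPKM in Yap1_OE and 22.5 FPKM in BirA, 36.7 FPKM in each knockout-labelled library and 28.6 FPKM in ESC, 21.3 FPKM in Yap1_KD and 19.5 FPKM in KD_control, and 44.3 FPKM in dESC_Yap1_KD and 41.0 FPKM in dESC_control. It was higher than its control in all 5 perturbed libraries, by 0.11 to 0.40 on the log2 scale, beside a 1.46-fold spread of the 3 undifferentiated controls. The Yap1_KD difference turned with the control, to log2 ratios of -0.40 against ESC and -0.07 against BirA. With differentiation, Igf2bp3 was 2.10-fold higher in dESC_control than in KD_control. The log2 ratio of dESC_control was 1.03 against KD_control, 0.51 against ESC and 0.84 against BirA.

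**Figure D2:**
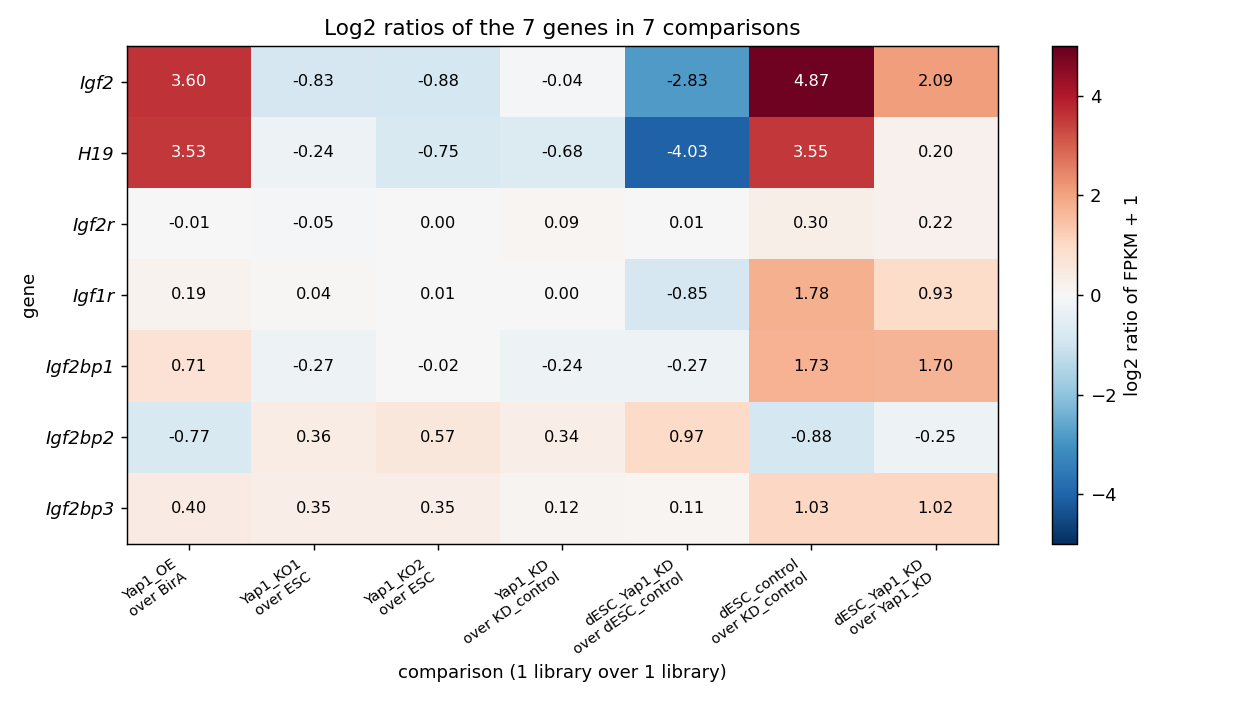
Log2 ratio of FPKM + 1 of each of the 7 genes (rows) in 7 comparisons of perturbed or differentiated libraries with their controls (columns). The widest cells are Igf2 and H19 with overexpression (3.60 and 3.53), with knockdown in differentiated cells (-2.83 and -4.03) and with differentiation of control cells (4.87 and 3.55), while Igf2r stays between -0.05 and 0.30.

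Against each own control, the make-up of the Igf2bp family differed more than its total did. The ratio of Igf2bp1 to Igf2bp2 FPKM, also chosen after the values were seen, was 5.46 in Yap1_OE and 1.91 in BirA. It was 1.64 and 1.68 in the libraries labelled Yap1_KO1 and Yap1_KO2, beside 2.55 in ESC, and 1.14 in Yap1_KD and 1.72 in KD_control. In differentiated cells it was 4.49 in dESC_Yap1_KD and 11.0 in dESC_control. The ratio was thus higher than the own control in Yap1_OE and lower in the 4 knockout-labelled and knockdown libraries. The undifferentiated controls themselves ran from 1.72 in KD_control to 2.55 in ESC. The knockout-labelled values lay only just below KD_control, so their difference depended on the control. Igf2bp2 made up 12.7% of the summed FPKM of the 3 genes in Yap1_OE and 28.5% in BirA, and 14.5% in dESC_Yap1_KD and 6.85% in dESC_control. The sum itself was 167 FPKM in Yap1_OE and 130 FPKM in BirA, 195 and 223 FPKM in the libraries labelled Yap1_KO1 and Yap1_KO2, beside 193 FPKM in ESC, 102 FPKM in Yap1_KD and 99.8 FPKM in KD_control, and 217 FPKM in dESC_Yap1_KD and 227 FPKM in dESC_control.

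**Figure D3:**
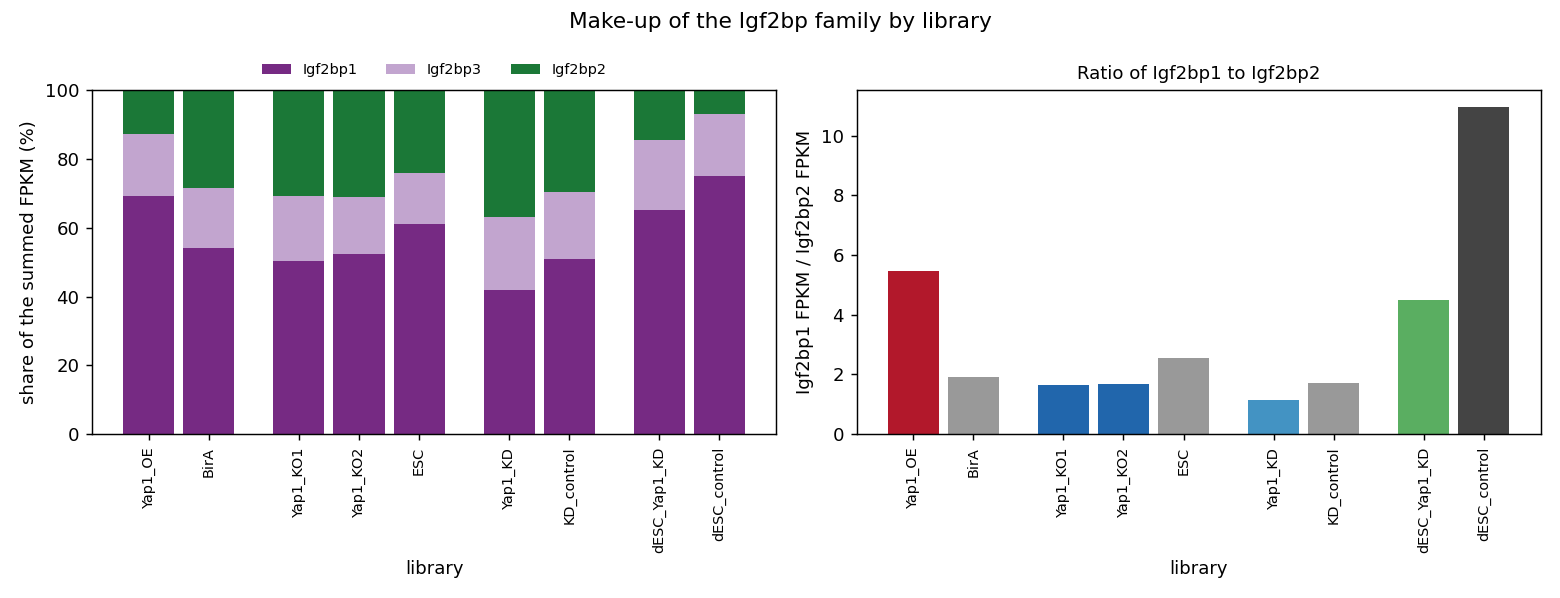
Share of each Igf2bp gene in the summed FPKM of the 3 genes in 9 libraries, as stacked percentages (left), and the ratio of Igf2bp1 to Igf2bp2 FPKM in the same libraries (right), with each perturbed library left of its control. The Igf2bp2 share is 12.7% in Yap1_OE and 28.5% in BirA, and 14.5% in dESC_Yap1_KD and 6.85% in dESC_control.

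Member counts were read beside the share of all tested genes that passed the same 2-fold threshold on log2(FPKM + 1), among genes that reached 1 FPKM in either compared library. In Yap1_OE over BirA, 2 of 7 members (Igf2 and H19) were higher beside 1.6% of genes, and 0 were lower beside 2.35%. In dESC_Yap1_KD over dESC_control, the same 2 were lower beside 4.77% of genes and 0 were higher beside 1.71%, with Igf2bp2 just short of the threshold at 0.97. These are the comparisons in which Igf2 and H19 were noticed, so nothing is read from the counts. For the library labelled Yap1_KO1, 0 of 7 passed in either direction beside 2.29% of genes, and for Yap1_KO2, 0 of 7 beside 2.36%. For Yap1_KD, 0 of the 6 members tested passed beside 1.01%, with Igf2 under 1 FPKM in both libraries. Differentiation had the higher counts. In dESC_control over KD_control, 5 of 7 members (Igf2, H19, Igf1r, Igf2bp1 and Igf2bp3) were higher beside 13.1% of genes and 0 were lower beside 10.1%. Against ESC in place of KD_control, Igf2, H19 and Igf1r were higher and Igf2bp2 was lower (-1.52), while Igf2bp1 and Igf2bp3 did not pass 2-fold. In dESC_Yap1_KD over Yap1_KD, 3 of 7 (Igf2, Igf2bp1 and Igf2bp3) were higher beside 10.3% and 0 were lower beside 10.4%.

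The response to knockdown was set side by side in the 2 states of the cells. The log2 ratio of Yap1_KD over KD_control was -0.04 for Igf2 and -0.68 for H19, whereas that of dESC_Yap1_KD over dESC_control was -2.83 for Igf2 and -4.03 for H19. The differentiated ratio minus the undifferentiated one was -2.79 for Igf2, -3.35 for H19, -0.85 for Igf1r and 0.64 for Igf2bp2, and within 0.08 of 0 for Igf2r, Igf2bp1 and Igf2bp3. With 1 library a group, this difference between states was not tested. Igf2 was at 0.239 FPKM in Yap1_KD and 0.273 FPKM in KD_control, the lowest levels of the 9 libraries. On log2(FPKM + 1) the fall that a gene can show is limited by its control level. That level in KD_control was 0.273 FPKM for Igf2 and 3.39 FPKM for H19. For both genes this limit was smaller than the fall seen in differentiated cells, so nothing is read from the size of the difference. As ratios of FPKM, H19 held 51.5% of its control in Yap1_KD and 4.28% in dESC_Yap1_KD. With a pseudocount of 0.1, the undifferentiated and differentiated log2 ratios were -0.92 and -4.49 for H19, and -0.14 and -3.06 for Igf2. How far the limit set the difference was not tested. H19 in dESC_Yap1_KD was also among the values by which the set was chosen.

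Where 2 libraries of a group allowed a test, no member passed it. In limma on the libraries labelled Yap1_KO1 and Yap1_KO2 against ESC, 0 of 7 members had an adjusted p (Benjamini-Hochberg) under 0.05, beside 0.173% of the 11538 genes tested. At an unadjusted p under 0.05 there were 3 members (Igf2, Igf2bp2 and Igf2bp3) beside 23.1% of genes. The log2 change by limma was -0.86 (SE 0.24, adjusted p = 0.173) for Igf2, lower in 2 of 2 libraries, and the adjusted p ran from 0.125 to 0.424 over the alternatives. Igf2bp2 had a log2 change of 0.47 (SE 0.13, limma adjusted p = 0.175), higher in 2 of 2 libraries, with adjusted p from 0.104 to 0.30. H19 had -0.50 (SE 0.28, limma adjusted p = 0.348), with adjusted p from 0.288 to 0.660. In these fits the lone ESC library is assumed to vary like the knockout-labelled pair, with 1 residual degree of freedom, and the labels name no separate cultures for the pair, so the p-values cover only the spread between these libraries, which may be technical.

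A joint limma fit of the knockout-labelled pair and Yap1_KD against ESC and KD_control, with a term for the arm, also passed 0 of 7 members, beside 0.0165% of 12128 genes. At an unadjusted p under 0.05 there were 2 members (H19 and Igf2bp2) beside 6.75% of genes. The joint log2 change was -0.58 for H19 (SE 0.20, limma adjusted p = 0.714, range over the alternatives 0.518 to 0.9999), lower than the own control in 3 of 3 libraries. It was 0.41 for Igf2bp2 (SE 0.12, limma adjusted p = 0.674, range 0.472 to 0.9999), higher in 3 of 3 libraries. A p that misses the threshold does not show that these levels were equal.

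Position relative to the 3 undifferentiated controls gave a further view that does not rest on the choice of 1 control, added after the values were seen. Yap1_OE was above all 3 for Igf2, H19 and Igf2bp3 (27.9% of all genes were) and below all 3 for Igf2r and Igf2bp2 (26% of genes). Both knockout-labelled libraries were above all 3 for Igf1r, Igf2bp2 and Igf2bp3 (23.8% of genes) and below all 3 for H19 (20% of genes). Yap1_KD was above them for Igf2r (28.7%) and below them for Igf2, H19 and Igf2bp1 (27.5%). dESC_control was above them for every member except Igf2bp2 (38.1%), which was below them (36%). dESC_Yap1_KD was above them for Igf2, Igf2r, Igf1r, Igf2bp1 and Igf2bp3 (35.4%) and below them for H19 (35.3%). The shares of all genes in such positions were large.

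Other receptors and adaptors of the pathway gave a mixed picture. Of 12 listed genes 10 were in the table, and Igf1, the other IGF ligand, was at or under 0.22 FPKM in every library. In Yap1_OE over BirA, 2 of 7 tested were at least 2-fold higher and 0 lower, beside 1.6% and 2.35% of all genes. These were Irs2, a docking protein of the activated receptor (7.04 FPKM in Yap1_OE, 2.62 FPKM in BirA), and Grb10, an imprinted inhibitor of receptor signalling (52.3 FPKM in Yap1_OE, 25.6 FPKM in BirA). Grb10 was at 32.0 FPKM in ESC and 31.0 FPKM in KD_control, so its difference was under 2-fold against either. Irs2 was at 2.93 FPKM in ESC and 1.94 FPKM in KD_control. In dESC_Yap1_KD over dESC_control, 2 of 7 were lower and 0 higher, beside 4.77% and 1.71% of all genes. The lower ones were Irs2 (22.0 FPKM in dESC_Yap1_KD, 54.2 FPKM in dESC_control) and its relative Irs1 (4.10 FPKM in dESC_Yap1_KD, 9.74 FPKM in dESC_control). In Yap1_KD over KD_control, Grb10 was the 1 of 6 at least 2-fold lower (10.8 FPKM in Yap1_KD, 31.0 FPKM in KD_control). Of all genes 1.01% passed 2-fold in either direction there. In both knockout-labelled libraries 0 of 6 passed 2-fold, beside 2.29% of all genes for Yap1_KO1 and 2.36% for Yap1_KO2. Grb10 stood on both sides of ESC, with 45.3 and 21.1 FPKM in the libraries labelled Yap1_KO1 and Yap1_KO2, beside 32.0 FPKM in ESC. The median log2 ratio of the list was 0.47 with overexpression, beside 0.02 over all genes, and -0.33 with differentiated knockdown, beside -0.01. Irs2 and Irs1 were also higher in dESC_control (54.2 and 9.74 FPKM) than in KD_control (1.94 and 0.154 FPKM).

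Among the secreted IGF binding proteins and the enzymes that cut them, Igfbp3, the main circulating carrier of IGFs, varied most. It was at 17.4 FPKM in Yap1_OE and 4.14 FPKM in BirA, the 1 of 7 tested genes at least 2-fold higher, with 0 lower. Of all genes 1.6% were higher and 2.35% lower. In differentiated cells Igfbp3 was at 91.3 FPKM in dESC_Yap1_KD and 289 FPKM in dESC_control, and 2 of 8 were at least 2-fold lower there, beside 4.77% of all genes. The second was Igfbp6, a carrier that prefers Igf2 (0.132 FPKM in dESC_Yap1_KD, 1.35 FPKM in dESC_control). Igfbp2, another carrier of IGFs, went the other way from Igfbp3 against BirA, at 374 FPKM in Yap1_OE and 700 FPKM in BirA. That difference depended on the control, as Igfbp2 was at 380 FPKM in ESC and 702 FPKM in KD_control. The median log2 ratio of the list was -0.01 with overexpression, beside 0.02 over all genes, and -0.75 with differentiated knockdown, beside -0.01. In the knockout-labelled libraries the median log2 change of the 8 tested genes was -0.78. By limma 0 of 8 passed, beside 0.173% of all genes, and 6 had an unadjusted p under 0.05, beside 23.1% of all genes. Htra1, a secreted protease that cleaves IGF binding proteins, was at 9.10 and 5.76 FPKM in the libraries labelled Yap1_KO1 and Yap1_KO2, beside 27.6 FPKM in ESC. ESC was the highest undifferentiated control for it, with 14.4 FPKM in BirA and 15.7 FPKM in KD_control.

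**Figure D4:**
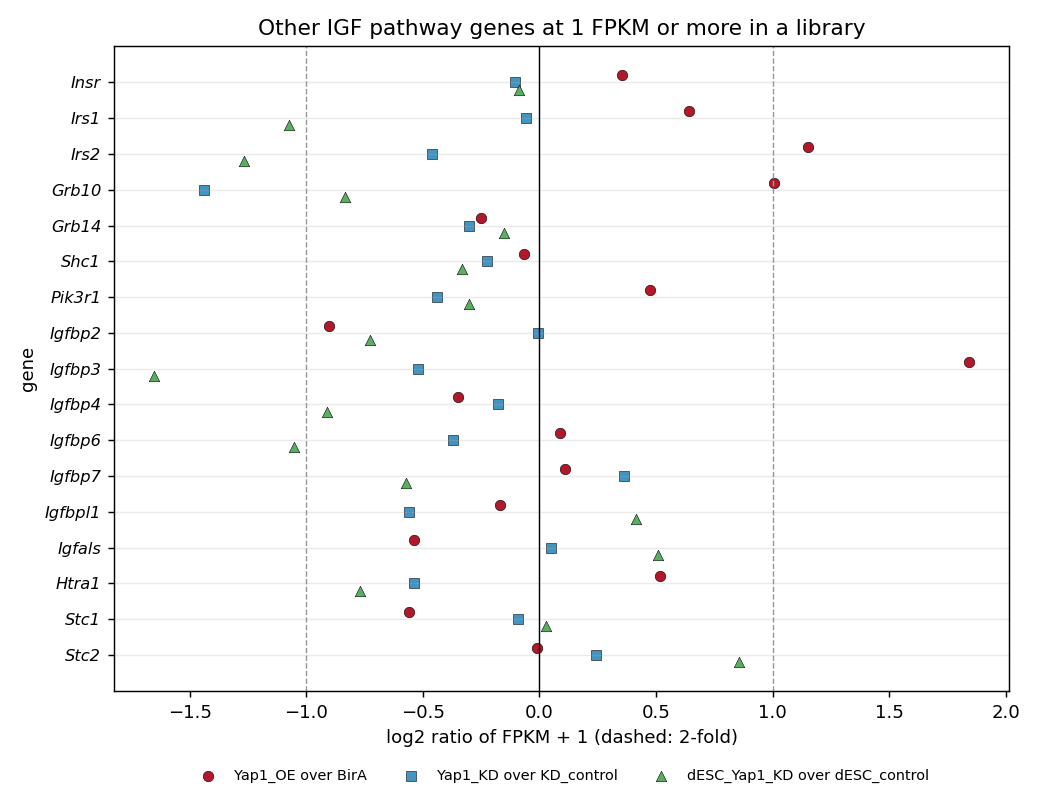
Log2 ratio of FPKM + 1 for 17 other IGF pathway genes in 3 comparisons, with dashed lines at 2-fold; red circles are Yap1_OE over BirA, blue squares Yap1_KD over KD_control and green triangles dESC_Yap1_KD over dESC_control, 1 library a group. Igfbp3 and Irs2 lie beyond 2-fold to the right with overexpression and to the left with differentiated knockdown, and Grb10 lies beyond 2-fold to the left with undifferentiated knockdown.

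Other genes of the distal chromosome 7 imprinted region that holds Igf2 and H19 were counted next, without a test of any difference from Igf2 and H19. Not all of them adjoin the pair. Tnnt3, Lsp1, Syt8 and Th were under 1 FPKM in both Yap1_OE and BirA and were not tested there. In Yap1_OE over BirA, 0 of 9 tested genes of the region were at least 2-fold higher and 1 was lower, beside 1.6% and 2.35% of all genes. The lower one was Slc22a18, an imprinted transporter gene (1.38 FPKM in Yap1_OE, 4.80 FPKM in BirA). The median log2 ratio was -0.09, beside 0.02 over all genes. Cdkn1c, a maternally expressed cell cycle inhibitor, was at 24.3 FPKM in Yap1_OE and 15.1 FPKM in BirA, and at 5.51 and 4.99 FPKM in the libraries labelled Yap1_KO1 and Yap1_KO2, beside 12.5 FPKM in ESC. In dESC_Yap1_KD over dESC_control, 2 of 11 were lower and 0 higher, beside 4.77% and 1.71% of all genes. The lower ones were Osbpl5, a lipid transfer gene (1.39 FPKM in dESC_Yap1_KD, 5.36 FPKM in dESC_control), and Tnnt3, a muscle troponin gene listed at 0 in dESC_Yap1_KD and at 1.66 FPKM in dESC_control.

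A list of imprinted genes, which includes Cdkn1c, was counted in the same way. In Yap1_OE over BirA, 5 of 15 tested were at least 2-fold higher and 0 lower, beside 1.6% and 2.35% of all genes. The median log2 ratio was 0.65, beside 0.02 over all genes. Without Cdkn1c, 5 of 14 were higher and the median was 0.63. Peg10, a retrotransposon-derived placental gene, was at 126 FPKM in Yap1_OE and 32.6 FPKM in BirA. Impact, a translation regulator gene, was at 49.1 FPKM in Yap1_OE and 19.7 FPKM in BirA, but in differentiated cells it was also higher with knockdown, at 89.96 FPKM in dESC_Yap1_KD and 74.1 FPKM in dESC_control. Mest, a paternally expressed gene of mesoderm, was at 54.5 FPKM in Yap1_OE and 22.5 FPKM in BirA, and Peg3, a zinc finger gene expressed from the paternal copy, was at 11.4 FPKM in Yap1_OE and 4.58 FPKM in BirA. ESC had 62.2 FPKM of Peg10 and 32.0 FPKM of Mest, so these differences were smaller against ESC. Impact and Peg3 were at 21.9 and 3.37 FPKM in ESC, near BirA. The count with overexpression was made against BirA only. In dESC_Yap1_KD over dESC_control, 4 of 17 were lower and 0 higher, beside 4.77% and 1.71% of all genes. The lower ones were Peg3, Slc38a4, an amino acid transporter gene, Peg10, and Plagl1, a zinc finger regulator of imprinted genes. Peg3 was at 13.5 FPKM in dESC_Yap1_KD and 58.3 FPKM in dESC_control, and Slc38a4 at 20.8 FPKM in dESC_Yap1_KD and 58.4 FPKM in dESC_control. Peg10 was at 213 FPKM in dESC_Yap1_KD and 429 FPKM in dESC_control, and Plagl1 at 0.944 FPKM in dESC_Yap1_KD and 2.89 FPKM in dESC_control. In undifferentiated cells Peg10 was at 23.1 and 25.9 FPKM in the libraries labelled Yap1_KO1 and Yap1_KO2, beside 62.2 FPKM in ESC, and at 9.14 FPKM in Yap1_KD and 28.2 FPKM in KD_control. ESC was the highest undifferentiated control for Peg10, and the knockout-labelled pair lay closer to KD_control and BirA (32.6 FPKM). By limma 0 of 14 passed in the knockout-labelled libraries, beside 0.173% of all genes. Grb10 and Cdkn1c belong to more than 1 of these lists.

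Markers of several other cell types differed in the comparisons in which Igf2 and H19 differed most, and the neuroectoderm sums differed less. Of 9 trophoblast markers, 5 were at 1 FPKM or more in Yap1_OE (sum 51.4 FPKM) and 3 in BirA (sum 35.3 FPKM). Hand1 (5.46 FPKM in Yap1_OE, 0.456 FPKM in BirA), Krt7 (11 FPKM in Yap1_OE, 2.28 FPKM in BirA) and Gata3 (2.26 FPKM in Yap1_OE, 0.149 FPKM in BirA) were higher. Eomes was lower (1.04 FPKM in Yap1_OE, 2.40 FPKM in BirA), and Tfap2c, the largest part of the sum, was at 29.9 FPKM in Yap1_OE and 29.6 FPKM in BirA. In differentiated cells 6 were at 1 FPKM or more in dESC_Yap1_KD (sum 48.5 FPKM) and 7 in dESC_control (sum 112 FPKM), with Tfap2c higher in dESC_Yap1_KD (18.4 FPKM) than in dESC_control (8.87 FPKM). The 7 mesoderm markers summed to 7.64 FPKM in Yap1_OE and 4.12 FPKM in BirA, and to 43.3 FPKM in dESC_Yap1_KD and 138 FPKM in dESC_control. Without Hand1, which is in both lists, the mesoderm sum was 2.18 FPKM in Yap1_OE and 3.66 FPKM in BirA, and 35.3 FPKM in dESC_Yap1_KD and 111 FPKM in dESC_control. Primitive and visceral endoderm markers summed to 4.40 FPKM in Yap1_OE and 1.99 FPKM in BirA, and to 4.49 FPKM in dESC_Yap1_KD and 9.39 FPKM in dESC_control. Neuroectoderm markers summed to 40.1 FPKM in Yap1_OE and 42.6 FPKM in BirA, and to 58.1 FPKM in dESC_Yap1_KD and 66.8 FPKM in dESC_control. The 10 feeder fibroblast markers summed to 8.22 FPKM in Yap1_OE and 23.3 FPKM in BirA, and to 10.7 FPKM in dESC_Yap1_KD and 14.4 FPKM in dESC_control. Without Thy1 the other 9 summed to 3.57 FPKM in Yap1_OE and 4.05 FPKM in BirA, and to 2.44 FPKM in dESC_Yap1_KD and 11.0 FPKM in dESC_control, where Col1a1 was at 0.444 FPKM in dESC_Yap1_KD and 5.73 FPKM in dESC_control. Of the fibroblast list, Dcn was listed at 0 in all 7 undifferentiated libraries and Lum in all libraries but dESC_Yap1_KD. Other genes of the list were present there. Pdgfrb was at 2.32, 1.95 and 2.75 FPKM in BirA, ESC and KD_control, and Col1a1 at 1.40, 0.832 and 1.06 FPKM. The part of trophoblast, mesoderm, endoderm, neuroectoderm and fibroblast markers in the Igf2 and H19 results was not tested.

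Genes with the pattern nearest to Igf2 were ranked by Pearson correlation of log2(FPKM + 1) over the 9 libraries, among 9563 genes that reached 5 FPKM in any library. For Igf2 these were Hmgxb4 (r = 0.980), 3830417A13Rik (0.975), Vgf (0.971), Kcmf1 (0.958) and Efna4 (0.953). For H19 they were Hspa1b (0.938), F3 (0.913), Cth (0.896), Snapc3 (0.890) and Hmgxb4 (0.882). The names depend on the measure. Ranked by Spearman correlation, 0 of these 5 for Igf2 and 1 of 5 for H19 were among the nearest 5, and with a pseudocount of 0.1, 2 of 5 for Igf2 and 4 of 5 for H19 were. Igf2 and H19 themselves had r = 0.867 and Spearman's rho = 0.633, Igf2bp1 and Igf2bp3 had r = 0.895, and Igf2bp2 ran against Igf2 (r = -0.816). These correlations are descriptions over 9 libraries that share controls and a cell line, and Yap1_OE and dESC_control hold the highest levels of both Igf2 and H19.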

How the data were processed

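The 9 libraries were polyadenylated RNA of J1 ES cells, 1 per group except for 2 in Yap1_KO. Reads were processed by the authors with TopHat2 and Cuffdiff on mm9, per the submitters' processing notes, and the authors deposited 1 table of gene values, taken here as FPKM because Cuffdiff writes that unit; the file does not name it. Versions, annotation and strandedness are not stated in any source at hand. Of 23277 rows, 4746 were blank and 27 carried symbols turned into dates; 18504 genes were used. All 9 columns were matched to samples by title.

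Ratios and tests used log2(FPKM + 1), which understates changes of low genes, keeping genes that reached 1 FPKM in any compared library. Percentages and folds of single genes are ratios of FPKM. Single libraries were compared by a 2-fold threshold with no p-value. Yap1_KO against ESC and the joint fit of the knockout-labelled and Yap1_KD libraries were run in limma (3.58.1, under R 4.3.3) with its trend option, and p-values were adjusted by Benjamini-Hochberg over all genes tested, and the fits were tested on simulated data. Depth was estimated from the FPKM steps and the lengths of 204 genes (quartiles of the scale 12.4 to 14.8 M (mega) fragments for BirA), so fragment numbers are approximate and cover counting error only. Coordinates and sequences are of GRCm38.p6, not mm9, and were not joined to any measurement. All 7 members are named; of each other list at most 4 genes per comparison were named, from those with the highest absolute ratios, together with Yap1 and the 5 genes nearest in pattern to Igf2 and to H19. The members and lists were chosen with earlier results of these data known. Alternatives changed the pseudocount, filter, scaling, controls, small RNA rows, GC trend and replicates.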

Additional observations from a re-analysis of the deposited data

How the results depend on the processing

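By limma no member tested passed in any alternative of either fit (7 members tested, and 5 with a filter of 5 FPKM, which drops Igf2 and H19). In single-library comparisons no member past 2-fold against its own control changed sign. Smaller ratios did turn with the control. For Yap1_OE the log2 ratio of Igf2bp1 was 0.71 against BirA, 1.18 against KD_control and -0.03 against ESC, and that of Igf1r was 0.19 against BirA and -0.38 against ESC. For Yap1_KD the log2 ratio of Igf2bp2 was 0.34 against KD_control and -0.30 against ESC, and that of Igf2bp3 was 0.12 and -0.40. The knockout-labelled libraries against ESC gave 20 genes by limma, and 0 without a filter on low values, 48 without small RNA rows, 40 with the GC trend removed and 1 against all 3 undifferentiated controls. The joint fit gave 2 genes, 1 with a pseudocount of 0.1, no filter, a filter of 5 FPKM or no arm term, 4 without small RNA rows, and 15 without the library labelled Yap1_KO1 and 4 without Yap1_KO2. Yap1_KD had 120 genes past 2-fold, and 52 without small RNA rows. With a pseudocount of 0.1, members past 2-fold numbered 1 for Yap1_KO1 and 2 for Yap1_KO2, in place of 0. Yap1_KD had 2 members past 2-fold against ESC and 2 against BirA, in place of 0, and dESC_Yap1_KD over Yap1_KD had 1 in place of 3 with a pseudocount of 5. In the knockout fit the log2 change of Igf2r (-0.02) was 0.018 with the GC trend removed and 0.064 against 3 controls, and that of Igf2bp1 (-0.14) was 0.50 against 3 controls. In the joint fit Igf2r (0.02) was -0.00063 and Igf2bp1 (-0.19) was 0.025 without the arm term, and Igf1r (0.02) was -0.0082 with the GC trend removed. The cause was not tested.

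No paired analysis was possible because only Yap1_KO has more than 1 replicate number. The knockout fit without one of its libraries has no residual degrees of freedom and gave no count. With 1 library in most groups, differences that rest on fewer than about 100 fragments, such as Igf2 in Yap1_KD, are limited by depth.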

Other observations

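Genes that maintain or remove methylation at imprinting control regions were looked at beside H19. Of 13 such genes tested in Yap1_OE over BirA, 1 was at least 2-fold higher and 1 lower, beside 1.6% and 2.35% of all genes. Dnmt3b, a de novo DNA methyltransferase, was at 99.3 FPKM in Yap1_OE and 46.7 FPKM in BirA, and Tet2, an enzyme that oxidises methylcytosine, was at 5.55 FPKM in Yap1_OE and 14.8 FPKM in BirA. The size of the Dnmt3b difference depended on the control, with 65.8 FPKM in ESC and 31.1 FPKM in KD_control. Tet2 was at 19.4 FPKM in ESC and 17.0 FPKM in KD_control. Ctcf, which binds the H19 control region, was at 64.6 FPKM in Yap1_OE and 49.8 FPKM in BirA. In dESC_Yap1_KD over dESC_control, Dnmt3l, a cofactor of the de novo methyltransferases, was lower at 28.8 FPKM in dESC_Yap1_KD and 132 FPKM in dESC_control, and Dnmt3a was higher at 35.3 FPKM in dESC_Yap1_KD and 16.6 FPKM in dESC_control. Dnmt3l was also lower in Yap1_KD (61 FPKM) than in KD_control (172 FPKM).

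The Igf2bp genes belong to an embryonic programme that let-7 microRNAs repress, and other genes of that kind were looked at too. In Yap1_OE over BirA, 0 of 11 passed 2-fold in either direction, beside 1.6% of all genes higher and 2.35% lower. Lin28a, the RNA-binding protein that blocks let-7 maturation, was at 228 FPKM in Yap1_OE and 147 FPKM in BirA. In dESC_Yap1_KD over dESC_control, 2 of 11 were lower beside 4.77% of all genes, the chromatin protein gene Hmga2 (5.28 FPKM in dESC_Yap1_KD, 12.3 FPKM in dESC_control) and the transcription factor gene Arid3a (5.26 FPKM in dESC_Yap1_KD, 14.1 FPKM in dESC_control). In dESC_control over KD_control, 5 of 11 were at least 2-fold higher, among them Hmga2 (12.3 FPKM in dESC_control, 2.95 FPKM in KD_control) and Lin28a (211 FPKM in dESC_control, 87.0 FPKM in KD_control), and 0 were lower, beside 13.1% of all genes higher and 10.1% lower. ESC had 6.21 FPKM of Hmga2 and 157 FPKM of Lin28a, so these differences were smaller against ESC. The median log2 ratio of this list in KD_control over ESC was -0.62, beside -0.01 over all genes. The count with differentiation thus depended on the control. No count here has a test, as each group had 1 library.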
